A study of Mus musculus with 6 samples.

Results

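The 10 genes described here encode granzymes and other parts of the cytotoxic granule, together with regulators and a receptor of the lymphocytes that carry it. They were chosen by symbol, with their obese against lean values in splenic CD4+ T cell RNA already known, and all 10 were found among the 22899 genes of each library. The values that guided the choice are those of the contrast itself, so the differences between groups given for these genes are a description with no test. The 6 libraries comprised 3 from obese mice and 3 from lean mice, all C57BL/6. Obese mice ate a high-fat diet with 60 kcal% fat and lean mice a normal diet, generally starting at 6 to 8 weeks of age and lasting at most 4 months. Helper T cells were sorted from spleen by flow cytometry, and the labels do not say whether a library came from 1 mouse or from a pool. The values are FPKM, fragment numbers scaled for transcript length and for the size of the library, so levels of different genes can be set side by side.

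Cytotoxic lymphocytes, which are natural killer (NK) cells, CD8 T cells and a small share of CD4 T cells, store granzymes in granules and release them onto a target cell. Perforin opens the target's membrane, and the granzymes, a family of serine proteases, enter and cleave proteins there. Granzyme A and granzyme K both cut after basic residues, whereas granzyme B cuts after aspartate. In mice, granzyme K transcripts are known from memory T cells, and NKp46, the product of Ncr1, marks NK cells and related innate lymphocytes.

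Gzma (gene 14938) and Gzmk (gene 14945) are neighbours on chromosome 13 of GRCm38, at 113093824 to 113100981 and 113171630 to 113180965. The gap of 70.6 kb between them holds 1 annotated RefSeq gene, which is not protein coding. Ncr1 (gene 17086) lies on chromosome 7, at 4337715 to 4345184. The 250 bases before the starts of these 3 genes are shown because they had the largest differences of the 10, in opposite directions for the chromosome 13 neighbours. Sequences are from RefSeq (GRCm38.p6), 5′ to 3′ on the gene's strand, and capitals mark T-box motif matches (TCACAC, bound by factors such as Eomes) and RUNX motif matches (TGTGGT, bound by factors such as Runx3) on either strand.
Gzmk, chr13:113180966-113181215, minus strand: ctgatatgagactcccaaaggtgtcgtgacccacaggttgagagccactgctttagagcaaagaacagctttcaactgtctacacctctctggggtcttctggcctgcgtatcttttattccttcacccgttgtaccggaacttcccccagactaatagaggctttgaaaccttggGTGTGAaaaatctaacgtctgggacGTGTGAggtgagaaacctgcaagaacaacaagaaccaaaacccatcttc
Gzma, chr13:113100982-113101231, minus strand: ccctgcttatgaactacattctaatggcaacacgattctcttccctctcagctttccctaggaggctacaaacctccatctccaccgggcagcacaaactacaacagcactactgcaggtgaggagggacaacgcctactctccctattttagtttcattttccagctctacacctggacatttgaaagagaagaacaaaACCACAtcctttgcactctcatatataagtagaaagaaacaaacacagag
Ncr1, chr7:4337465-4337714, plus strand: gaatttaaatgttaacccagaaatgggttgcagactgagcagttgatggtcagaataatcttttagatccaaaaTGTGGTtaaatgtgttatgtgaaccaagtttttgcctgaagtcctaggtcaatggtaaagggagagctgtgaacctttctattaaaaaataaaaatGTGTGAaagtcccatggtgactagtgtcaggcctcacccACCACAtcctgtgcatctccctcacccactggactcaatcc
In the Gzmk window, GTGTGA, the reverse complement of the T-box letters, occurred at −74 to −69 and at −49 to −44 from the start, and the RUNX letters did not occur. In the Gzma window ACCACA, the reverse complement of the RUNX letters, stood at −50 to −45, and the T-box letters did not occur. The Ncr1 window, taken from the more upstream of its 2 annotated starts, held both kinds. Promoters were found for 9 of the 10 genes, and windows of 5 of the 9 held the T-box letters (Gzmb, Gzmk, Gzmm, Ncr1 and Nkg7) and those of 6 the RUNX letters (Gzma, Gzmb, Gzmm, Ncr1, Nkg7 and Prf1), counting either start of a gene with 2. Among all 32851 RefSeq windows of this length, 12.3% held the T-box letters and 14% the RUNX letters. Of other motifs searched, the STAT letters TTCNNNGAA occurred for 2 of the 9 genes and in 7.02% of all windows, and the CRE half-site TGACG for 1 of the 9 and in 17.8%. A match is a string of letters and does not show that a factor binds there.

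The 6 libraries carried the transcripts of helper T cells and those of other cells. Cd4 lay between 279 and 325 FPKM in obese and between 324 and 363 FPKM in lean libraries, Cd8b1 of CD8 T cells between 39.1 and 63.0 FPKM in obese and between 46.8 and 61.8 FPKM in lean ones. A total of 10788 genes reached 1 FPKM in 3 or more libraries, and 678 of them (6.28%) passed the test (limma on log2(FPKM + 1), Benjamini-Hochberg adjusted p under 0.05), 622 higher and 56 lower in obese libraries. Higher genes were 91.7% of the calls, 77.4% after median-of-ratios scaling and 74.2% after quantile normalization. The median difference of all tested genes, obese minus lean, was 0.10 on the log2 scale, 0.21 when haemoglobin genes were left out of the scaling and −0.03 after quantile normalization. The count fell to 326 genes without lean 1 and to 318 without lean 2. Macrophage and erythroid markers were higher and neutrophil markers lower in obese libraries, with values given further on.

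Gzmk was the gene among the 10 with the largest positive difference, while Gzma and Ncr1 had the largest negative ones and Hopx and Nkg7 were close to level. Differences were positive for 3 genes (Gzmk, Eomes and Hopx) and negative for 7, with a median of −0.22 on the log2(FPKM + 1) scale against 0.10 for all tested genes. Libraries of the groups did not overlap for Gzmk and Eomes, higher in obese, where 25.4% of all tested genes were higher without overlap. They did not overlap for Ncr1, lower in obese, where 6.15% of tested genes were lower without overlap. At the threshold of the test 1 of the 10 was called higher (Gzmk), beside 5.77% of all tested genes, and 1 was called lower (Ncr1), beside 0.519%. With no filter on low values, neither was called. Ncr1 was also not called without obese 1, obese 3, lean 1 or lean 2, whereas Gzmk was called in each of those fits. Gzma was called after median-of-ratios scaling and without obese 2, and Ctsw without lean 3. These counts and calls describe genes chosen on this contrast, so neither a call nor its stability over the fits is a test of them. All 10 passed the filter on low values.

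**Figure D1:**
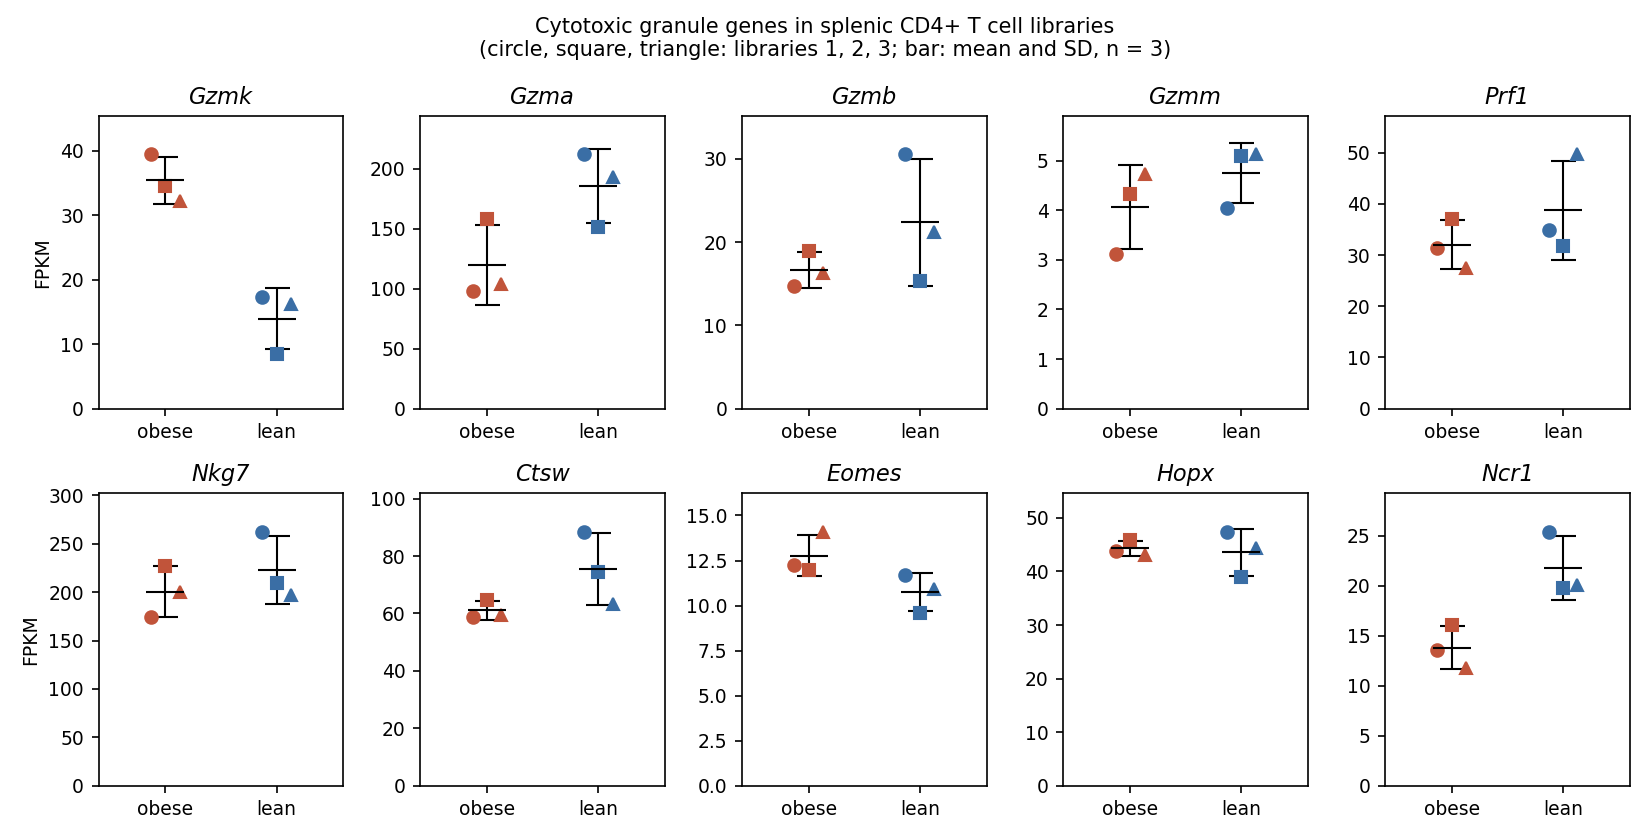
FPKM of each of the 10 genes in the 3 obese (left, red) and 3 lean (right, blue) libraries; each panel has its own axis from 0, and bars give the mean and SD. Gzmk sits at 32.3 to 39.4 FPKM in obese libraries and at 8.47 to 17.25 FPKM in lean ones, and Ncr1 at 11.8 to 16.1 FPKM in obese and 19.75 to 25.4 FPKM in lean libraries.

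Among the granzymes, Gzmk stood at 39.4, 34.5 and 32.3 FPKM in obese 1, 2 and 3, against 17.25, 8.47 and 16.2 FPKM in lean 1, 2 and 3. Every obese library lay above every lean one, and lean 2 was the lowest of the 6. The mean was 35.4 ± 3.66 FPKM in obese and 14.0 ± 4.79 FPKM in lean libraries (SD, n = 3 each), with a ratio of 2.53 and a log2 difference of 1.34 ± 0.22 (SE). Of the 10788 tested genes, 102 had a larger log2 difference. The difference ranged from 1.03 to 1.51 when each library was left out in turn.

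Gzma, the most abundant granzyme in all 6 libraries, had 97.9, 158 and 104 FPKM in obese 1, 2 and 3, against 212, 152 and 194 FPKM in lean 1, 2 and 3. The groups overlapped through a single pair, obese 2 lying above lean 2. Means were 120.06 ± 33.3 FPKM in obese and 186 ± 30.9 FPKM in lean libraries (SD, n = 3 each), which is −0.65 ± 0.19 (SE) on the log2 scale. Gzmb, on chromosome 14 (56258836 to 56262334), had 14.7, 19.0 and 16.2 FPKM in obese libraries, against 30.5, 15.4 and 21.3 FPKM in lean ones. Lean 2 lay within the obese range, and lean 1 and lean 3 above it, with lean 1 standing high. The log2 difference of −0.36 ± 0.21 (SE) ranged from −0.60 to −0.12 when each library was left out in turn. Gzmm, on chromosome 10, whose protease cuts after methionine and leucine, was the lowest of the 10, with 3.12, 4.34 and 4.74 FPKM in obese and 4.05, 5.09 and 5.13 FPKM in lean libraries. The ranges overlapped, and the log2 difference was −0.19 ± 0.15 (SE).

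The shares of Gzmk and Gzma among the granzyme transcripts did not overlap between the groups, whereas the granzyme total did. Gzma, Gzmb, Gzmk, Gzmm and Gzmc summed to 156, 217 and 158 FPKM in obese libraries, against 265, 182 and 237 FPKM in lean ones, and these totals overlapped. Gzmk supplied 25.2%, 15.9% and 20.4% of the sum in obese 1, 2 and 3, against 6.5%, 4.64% and 6.82% in lean 1, 2 and 3. Gzma supplied 62.7%, 72.9% and 65.8% in obese libraries, against 80.0%, 83.2% and 81.7% in lean ones. The share of Gzmk was higher and that of Gzma lower in every obese library. Shares of the same sum depend on each other, so the lower share of Gzma is not a separate result. The share of Gzmb, at 8.74% to 10.3% in obese and 8.43% to 11.5% in lean libraries, overlapped. Gzmc, the only other granzyme gene that passed the filter, lay between 0.90 and 1.08 FPKM in obese and between 0.83 and 1.72 FPKM in lean libraries. Its log2 difference of −0.19 ± 0.15 did not pass (limma, Benjamini-Hochberg adjusted p = 0.462). Gzmd, Gzmg and Gzmn were listed at 0 in all 6 libraries, and Gzme and Gzmf at 0 in 5 of 6, with 0.06 FPKM in obese 2 and obese 3.

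**Figure D2:**
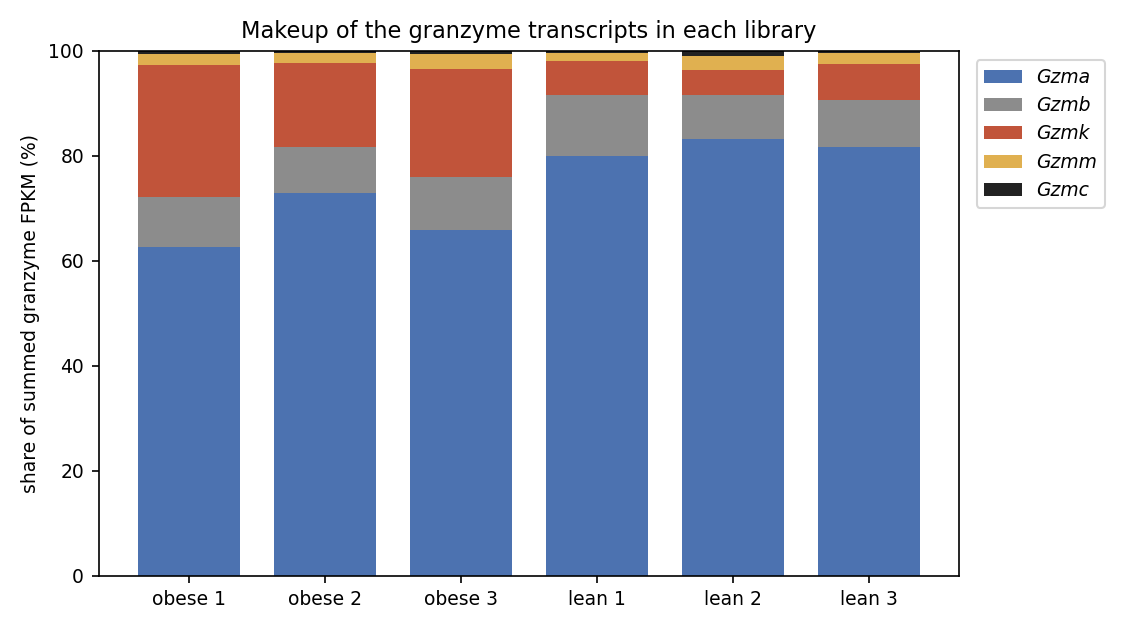
Share of the summed FPKM of 5 granzyme genes (vertical axis, percent) in each obese (left) and lean (right) library. The Gzmk segment takes 15.9% to 25.2% in obese libraries and 4.64% to 6.82% in lean ones, beside a smaller Gzma segment in each obese library. Segments of the same bar depend on each other.

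Of the granule proteins, Prf1, the gene of perforin on chromosome 10 (61297751 to 61304684), had 31.5, 37.0 and 27.5 FPKM in obese libraries, against 34.8, 31.7 and 49.7 FPKM in lean ones. The groups overlapped and lean 3 stood alone at the top, with a log2 difference of −0.25 ± 0.17 (SE). Nkg7, a granule membrane protein of NK and cytotoxic T cells on chromosome 7 (43437138 to 43438246), was the most abundant of the 10, with 174, 227 and 200.28 FPKM in obese and 263, 209 and 197 FPKM in lean libraries. Its ranges overlapped broadly (log2 difference −0.15 ± 0.13, SE). Ctsw, which encodes cathepsin W, a cysteine protease of NK and CD8 T cells, had 58.9, 64.8 and 59.5 FPKM in obese and 88.5, 74.3 and 63.4 FPKM in lean libraries. The overlap came from obese 2 lying above lean 3, and the log2 difference was −0.29 ± 0.12 (SE).

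Of the regulators, Eomes, a T-box transcription factor of NK and memory T cells on chromosome 9 (118478186 to 118486132), had 12.2, 12.0 and 14.1 FPKM in obese libraries, against 11.7, 9.60 and 10.9 FPKM in lean ones. All obese values lay above all lean ones, but obese 2 and lean 1 were 11.98 and 11.70 FPKM. The log2 difference was 0.23 ± 0.11 (SE), which stood at 0.07 after quantile normalization. Hopx, a homeodomain protein that does not itself bind DNA, had 43.9, 45.9 and 43.2 FPKM in obese and 47.5, 38.9 and 44.3 FPKM in lean libraries. Its log2 difference of 0.03 ± 0.09 (SE) turned to −0.09 after median-of-ratios scaling, to −0.02 after quantile normalization and to −0.05 without lean 2.

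Ncr1, the NK receptor, had 13.6, 16.1 and 11.8 FPKM in obese 1, 2 and 3, against 25.4, 19.75 and 20.0 FPKM in lean 1, 2 and 3. All obese libraries lay below all lean ones. Means were 13.8 ± 2.17 FPKM in obese and 21.7 ± 3.20 FPKM in lean libraries (SD, n = 3 each). The log2 difference of −0.62 ± 0.14 (SE) ranged from −0.73 to −0.51 when each library was left out in turn. In bulk RNA, fewer cells of a type and less RNA per cell cannot be told apart.

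**Figure D3:**
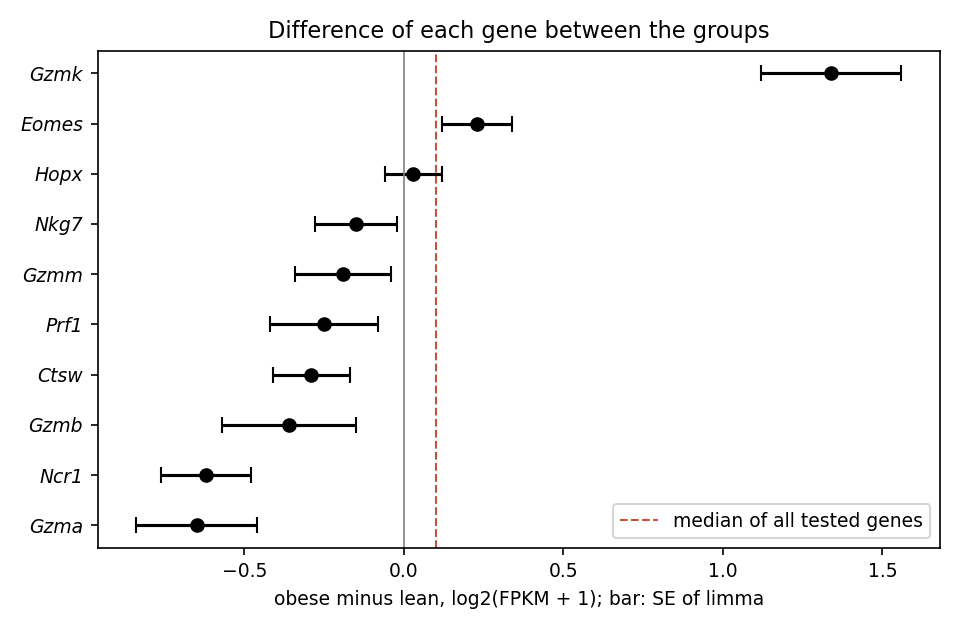
Obese minus lean difference of each gene on the log2(FPKM + 1) scale (horizontal axis) with the SE of limma, ordered by size; the dashed line is the median of all tested genes, 0.10. Gzmk lies at 1.34, apart from the others, which run from 0.23 for Eomes to −0.65 for Gzma.

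The order of mean levels in FPKM was much the same in both groups except for Gzmk. In obese libraries it ran Nkg7, Gzma, Ctsw, Hopx, Gzmk, Prf1, Gzmb, Ncr1, Eomes and Gzmm, and in lean libraries Nkg7, Gzma, Ctsw, Hopx, Prf1, Gzmb, Ncr1, Gzmk, Eomes and Gzmm. Neighbours whose libraries overlapped in obese were Gzmk with Prf1, Gzmb with Ncr1 and Ncr1 with Eomes. In lean libraries they were Nkg7 with Gzma, Hopx with Prf1, Gzmb with Ncr1 and Gzmk with Eomes. Gzmk thus stood beside Prf1 in obese libraries and beside Eomes in lean ones.

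Set against Ncr1 within each library, Gzma overlapped between the groups and Gzmk did not. Gzmk was higher and Ncr1 lower in every obese library, so their ratio could not overlap and adds nothing to those values. Gzmk per Ncr1 was 2.91, 2.14 and 2.74 in obese 1, 2 and 3, against 0.678, 0.429 and 0.807 in lean 1, 2 and 3. Gzma per Ncr1 was 7.22, 9.83 and 8.82 in obese libraries, against 8.34, 7.68 and 9.67 in lean ones. Gzmb and Prf1 per Ncr1 also overlapped between groups, at 1.08 to 1.38 and 2.30 to 2.33 in obese and at 0.779 to 1.20 and 1.37 to 2.48 in lean libraries. Of the 9 ratios to Ncr1, 4 overlapped (Gzma, Gzmb, Gzmm and Prf1) and 5 were higher in obese libraries without overlap (Gzmk, Nkg7, Ctsw, Eomes and Hopx). Ncr1 itself was lower in all obese libraries, and of the other 10787 tested genes divided by it, 90.7% were higher in obese libraries without overlap and 0.0649% lower, so nothing is read from that count. Nkg7 per Ncr1 was 12.8 to 17.0 in obese and 9.82 to 10.6 in lean libraries.

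**Figure D4:**
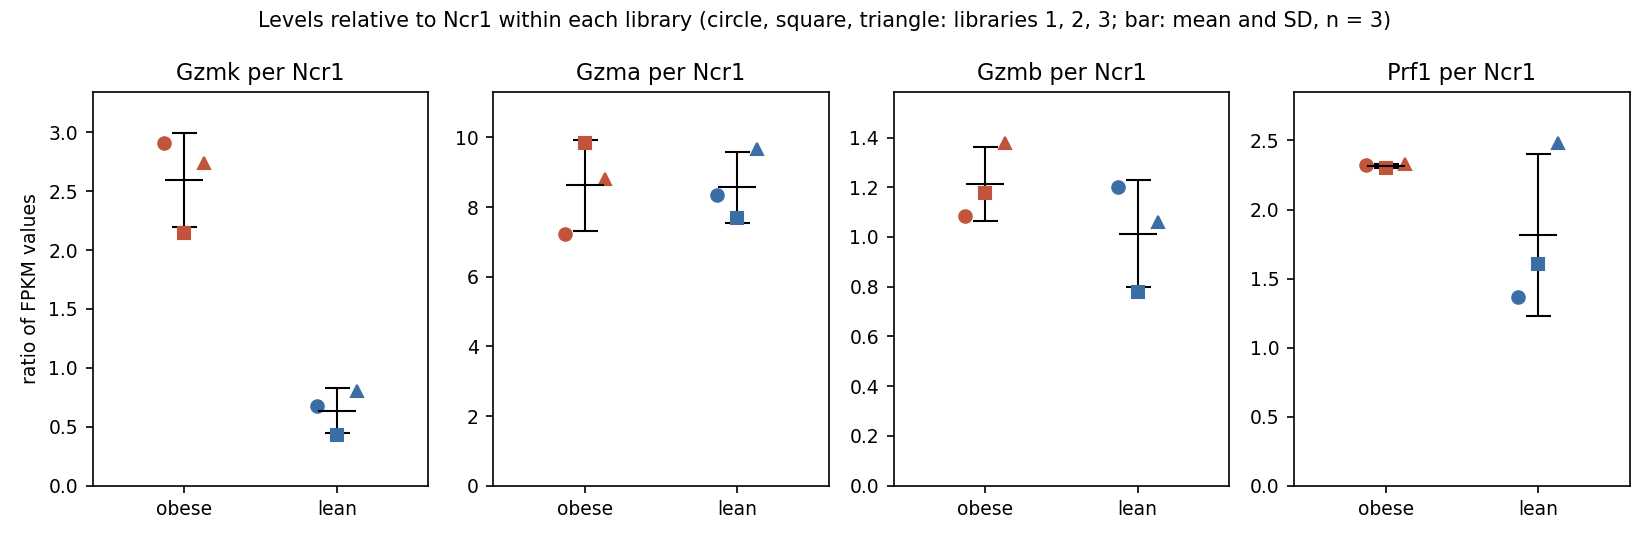
FPKM of Gzmk, Gzma, Gzmb and Prf1 divided by that of Ncr1 in the same library, obese left and lean right, with the mean and SD. Gzmk per Ncr1 is 2.14 to 2.91 in obese and 0.429 to 0.807 in lean libraries, whereas the other 3 ratios overlap. Gzmk is higher and Ncr1 lower in every obese library, so their ratio could not overlap.

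T cell genes as the divisor gave the same direction for Gzmk. Cd3e and Cd4 differed far less between libraries than Gzmk did, so these ratios could not overlap and add nothing to the values of Gzmk. Divided by Cd3e of the T cell receptor, Gzmk was 0.114, 0.0758 and 0.0918 in obese and 0.0394, 0.0205 and 0.0437 in lean libraries. Gzmk per Cd4 was 0.122, 0.106 and 0.116 in obese and 0.0476, 0.0262 and 0.0485 in lean libraries. Gzma per Cd3e was 0.283 to 0.348 in obese and 0.367 to 0.524 in lean libraries without overlap. Gzma per Cd4 overlapped, at 0.303 to 0.487 in obese and 0.469 to 0.585 in lean ones. Ctsw and Ncr1 per Cd3e and Ncr1 per Cd4 were also lower in obese libraries without overlap, and Eomes and Hopx per Cd4 higher. The share of all tested genes without overlap on these scales is not at hand, so nothing is read from them. The summed FPKM of 15 killer cell lectin-like receptor (Klr) genes overlapped too, at 158, 184 and 171 in obese and 233, 179 and 227 in lean libraries. Against that sum, Gzmk was 0.249, 0.188 and 0.188 in obese and 0.0741, 0.0473 and 0.0711 in lean libraries. That ratio could not overlap either, for the same reason. Of the 10 genes divided by it, 6 overlapped between groups, Gzmk, Eomes and Hopx were higher in obese libraries without overlap, and Ncr1 was lower. Of 10773 other tested genes, 58.3% were higher in obese libraries without overlap on that scale and 0.297% lower. Nkg7 per Klr sum was 1.10 to 1.24 in obese and 0.865 to 1.17 in lean libraries, and Ctsw 0.347 to 0.373 in obese and 0.279 to 0.415 in lean ones, both overlapping.

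Within the groups the libraries differed along lines that many of the 10 genes shared. In lean libraries, lean 1 was the highest for 8 of the 10 genes and lean 2 the lowest for 7. In obese libraries, obese 2 was the highest for 7 and obese 1 the lowest for 5. Lean 2 lay 0.60 below the lean mean for Gzmk and 0.46 below it for Gzmb, on the log2(FPKM + 1) scale. Obese 2 lay 0.43 above the obese mean for Gzma and 0.22 above it for Ncr1, whereas Gzmk in obese 2 was 0.03 below its mean.

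**Figure D5:**
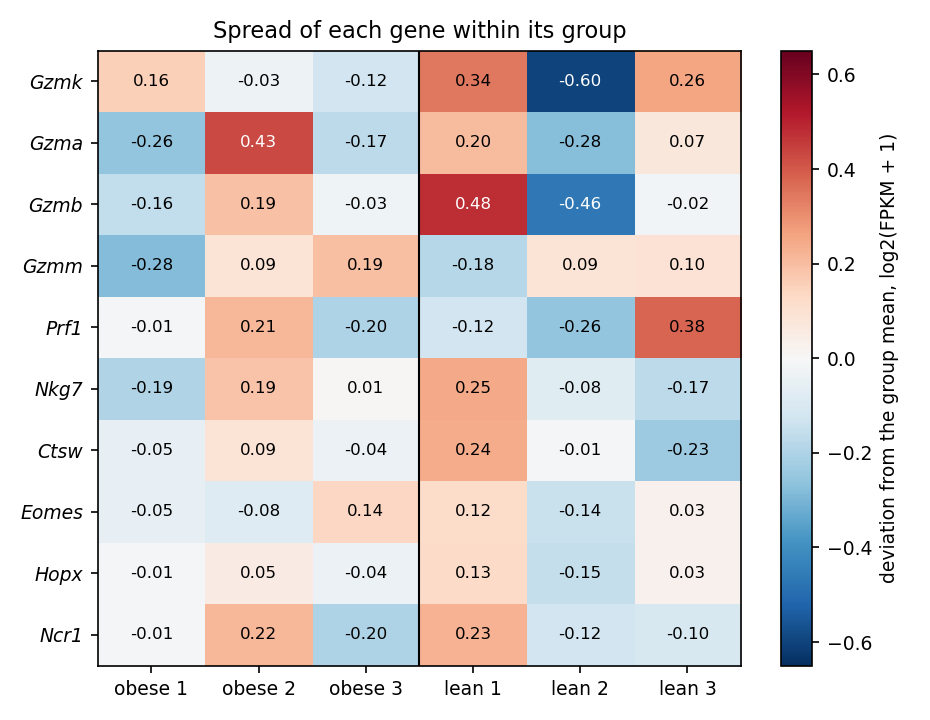
Deviation of each gene (rows) from the mean of its group on the log2(FPKM + 1) scale in each library (columns, obese left and lean right). Lean 2 is lowest for Gzmk (−0.60) and Gzmb (−0.46), and obese 2 stands out for Gzma (0.43).

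Likeness was described by Pearson's r of these deviations over the 6 libraries, among 141 other genes of this set and of the lists below with a mean of at least 2 FPKM. The 6 points share their library's cell makeup, and no p is attached. The genes most like Gzmk were Fasl, the ligand of the Fas death receptor (r = 0.96), Sytl2, a granule docking protein (r = 0.95), Hopx (r = 0.89) and the transcription factor Batf (r = 0.89). Those most like Ncr1 were Sh2d1b1, a signalling adaptor of NK cells (r = 0.98), Tbx21, the T-box factor T-bet (r = 0.95), Klrg1, a lectin-like receptor (r = 0.93), and the chemokine Ccl5 (r = 0.92). Cd4 came next (r = 0.89), so the ranking is not particular to NK genes. The log2 differences of Sh2d1b1 and Klrg1 were positive, 0.54 and 0.24, unlike that of Ncr1. Those of Tbx21 and Ccl5 were negative, −0.20 and −0.09. Gzmk deviated most in lean 2 (−0.60), where Fasl, Sytl2, Hopx and Batf also had their lowest lean values. That library therefore weighs heavily in the ranking for Gzmk. Between members of the set, r was 0.46 for Gzmk with Gzma and 0.45 for Gzmk with Ncr1, against 0.79 for Gzma with Ncr1. Other members did not follow a single line. Gzmb had 0.75 with either gene, and Gzmm was negative with both (−0.50 with Gzmk, −0.45 with Ncr1). Hopx, Prf1 and Eomes had 0.89, 0.53 and 0.57 with Gzmk, against 0.73, 0.23 and −0.03 with Ncr1. Nkg7 and Ctsw had 0.17 and 0.08 with Gzmk, against 0.75 and 0.74 with Ncr1. Between groups, Fasl averaged 7.66 ± 0.67 FPKM in obese and 7.69 ± 2.49 FPKM in lean libraries (SD, n = 3 each), and the log2 differences of Fasl, Sytl2 and Batf were 0.04, 0.08 and −0.12, none past the threshold (limma, Benjamini-Hochberg adjusted p = 0.925, 0.715 and 0.333).

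Genes that serve the same pathway but are not among the 10 were taken from lists of granule maturation, granule release, effector ligands and transcription factors, chosen with earlier results of these data known. Of their 51 tested genes, other granzymes included, 6 rose in obese libraries (11.8%, against 5.77% of all tested genes) and none fell (0.519% of all). With no filter on low values, Ctsc, Ctsh, Stx11 and Prdm1 of these 6 were not called. A filter of 5 FPKM also ended the calls of Ctsh and Stx11, and Zeb2 and Prdm1 were no longer tested under it. Their median log2 difference, over all 51, was 0.10, the same as that of all tested genes. Of 10 tested genes of granzyme maturation, storage and inhibition, 3 rose and none fell. Ctsc, the peptidase that removes the propeptide of granzymes, stood at 39.1 ± 5.23 FPKM in obese and 22.4 ± 5.01 FPKM in lean libraries (SD, n = 3 each; log2 difference 0.79; limma, Benjamini-Hochberg adjusted p = 0.0212). That call was lost on leaving out lean 1, lean 2, obese 1 or obese 3. Serpinb6a, an intracellular inhibitor of serine proteases, stood at 37.8 ± 5.76 FPKM in obese and 22.6 ± 1.06 FPKM in lean libraries (SD, n = 3 each; log2 difference 0.71; limma, Benjamini-Hochberg adjusted p = 0.00706) and passed in all 6 leave-one-out fits. Ctsh, a cathepsin, rose by 0.71 on the log2 scale (limma, Benjamini-Hochberg adjusted p = 0.0466) and lost its call on leaving out lean 1, lean 3, obese 1 or obese 3, after median-of-ratios scaling or quantile normalization, and with the replicate number as a block (adjusted p = 0.0595 in that limma fit). Srgn, the proteoglycan that packs granzymes, ranged from 525 to 632 FPKM in obese and from 445 to 512 FPKM in lean libraries.

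Of 15 genes of granule transport and exocytosis, 1 rose and none fell. It was Stx11, a syntaxin needed for granule fusion, at 17.7 ± 2.37 FPKM in obese and 12.2 ± 1.39 FPKM in lean libraries (SD, n = 3 each; log2 difference 0.50; limma, Benjamini-Hochberg adjusted p = 0.0452). Of the 6 fits that left out a library, it passed in the 1 without obese 2, and it did not pass after median-of-ratios scaling or quantile normalization. Rab27a and Unc13d, which tether and prime granules, overlapped between groups, at 29.8 to 32.7 and 33.0 to 38.2 FPKM in obese and at 21.4 to 34.6 and 32.3 to 37.2 FPKM in lean libraries. None of the 14 tested death ligands, cytokines, chemokines and their receptors passed. Xcl1, a chemokine of NK and CD8 T cells, had a log2 difference of −0.45 (limma, Benjamini-Hochberg adjusted p = 0.118; 0.0385 without lean 2), and Tnfsf10, the death ligand TRAIL, had 0.24 (adjusted p = 0.178 in the same limma fit).

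Of 11 tested transcription factors of cytotoxic lymphocytes, 2 rose and none fell. Zeb2, a zinc finger factor of terminal effector cells, stood at 2.95 ± 0.52 FPKM in obese and 1.26 ± 0.25 FPKM in lean libraries (SD, n = 3 each; log2 difference 0.81; limma, Benjamini-Hochberg adjusted p = 0.0126). Prdm1, the gene of Blimp-1, stood at 4.58 ± 1.25 FPKM in obese and 2.18 ± 0.27 FPKM in lean libraries (SD, n = 3 each; log2 difference 0.79; limma, Benjamini-Hochberg adjusted p = 0.0252). Neither passed without lean 1 or lean 2, and Prdm1 did not after quantile normalization. Tbx21 lay between 23.2 and 26.7 FPKM in obese and between 26.8 and 31.1 FPKM in lean libraries, and did not pass the test (log2 difference −0.20; limma, Benjamini-Hochberg adjusted p = 0.210).

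Some markers of other cells that hold these transcripts moved with the groups. Of 87 tested markers over all cell type lists, 26.4% rose and 10.3% fell. Among all tested genes these shares were 5.77% and 0.519%. Of 10 macrophage markers all 10 rose, with summed levels of 1476 to 1648 FPKM in obese and 634 to 738 FPKM in lean libraries. C1qa, C1qb and C1qc, of complement C1q, had log2 differences of 1.48, 1.44 and 1.5, and Cd68, a lysosomal protein, had 0.97 (limma, Benjamini-Hochberg adjusted p up to 0.000482). Macrophages express Ctsc, Ctsh, Serpinb6a, Stx11, Zeb2 and Prdm1, and the part of macrophage RNA in those 6 rises was not tested. Of 6 plasma cell markers, 1 rose, the antibody joining chain Jchain (756 ± 273 FPKM in obese and 364 ± 26.5 FPKM in lean libraries, SD, n = 3 each; limma, Benjamini-Hochberg adjusted p = 0.0252), which did not pass without lean 1, lean 2 or lean 3, or with no filter on low values. Plasma cells express Prdm1 too, and the summed markers stood at 767 to 1387 FPKM in obese and 477 to 561 FPKM in lean libraries.

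Of 22 tested NK receptors and adaptors, 3 rose and 3 fell, beside 5.77% and 0.519% of all tested genes. The median log2 difference of the 22 was −0.22. Their summed level was 638 to 688 FPKM in obese and 618 to 676.5 FPKM in lean libraries, and none was at 0 in all 6. Tyrobp and Fcgr3 made up 310 to 315 FPKM of it in obese and 219 to 248 FPKM in lean libraries. The whole sum, over the 23 list genes found in the libraries, overlapped between groups. Setting Tyrobp and Fcgr3 aside removes 2 of the 3 genes that rose, so the split itself favours lower obese sums in the rest. The other 21 of the 23 summed to 325 to 372 FPKM in obese and 374 to 442 FPKM in lean libraries. Those sums lay narrowly apart. Within them the adaptor Hcst alone held 125 to 159 FPKM in obese and 146 to 180 FPKM in lean libraries. Hcst overlapped between groups, and so did the sum of the 15 Klr genes. Klra8 (Ly49H) fell to 11.4 ± 0.74 FPKM in obese, against 20.2 ± 2.20 FPKM in lean libraries (SD, n = 3 each; log2 difference −0.77; limma, Benjamini-Hochberg adjusted p = 0.00343). Klrc2, of the NKG2 receptors, fell with a log2 difference of −0.75 (limma, Benjamini-Hochberg adjusted p = 0.0264) but was not called when lean 1, lean 3, obese 1 or obese 2 was left out. Klra4, named after its values were seen, fell with −0.54 (limma, Benjamini-Hochberg adjusted p = 0.0359) but was not called without obese 1, lean 1, lean 2 or lean 3. Genes of the Klra and Klrc families are near copies, and reads shared between them make single values uncertain. The 3 that rose were Fcgr3, an Fc receptor (0.84), the adaptor Tyrobp (0.36) and Sh2d1b1 (0.54), also named after its values were seen, and the first pair is also carried by macrophages. With no filter on low values Klrc2, Klra4, Tyrobp and Sh2d1b1 were not called, nor were Klrc2 and Klra4 when haemoglobin genes were left out of the scaling. Sh2d1b1 passed in 1 of the 6 leave-one-out fits, that without obese 3, and not after median-of-ratios scaling or quantile normalization. Tyrobp did not pass after median-of-ratios scaling or without lean 1, obese 1, obese 2 or obese 3. The part of NK cell RNA in the values of Gzma, Gzmb, Prf1, Nkg7, Ctsw and Eomes was not tested. Their ratios to Ncr1 and to the Klr sum are given above.

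Both CD8 markers overlapped between groups. Cd8a stood at 13.1 ± 3.59 FPKM in obese and 10.8 ± 2.34 FPKM in lean libraries, and Cd8b1 at 53.0 ± 12.4 FPKM in obese and 52.0 ± 8.48 FPKM in lean libraries (SD, n = 3 each), with log2 differences of 0.24 and 0.01 that did not pass (limma, Benjamini-Hochberg adjusted p = 0.480 and 0.980). Obese 1 had the lowest Cd8b1 of the 6 libraries, 39.1 FPKM, and the highest Gzmk, 39.4 FPKM. Cd8a was lowest in lean 1, at 8.29 FPKM, against 9.43 FPKM in obese 1. The part of CD8 T cell RNA in the values of Gzmk was not tested. No marker passed among 9 T cell and helper genes, 5 of basophils and mast cells, 6 of plasmacytoid dendritic cells and 6 of B cells. Cd3d and Cd28 of T cells had log2 differences of −0.21 and 0.27, Il1rl1 of innate lymphoid cells, which did not pass either, 0.30, Prss34 and Cma1 of basophils and mast cells −1.61 and −0.36, Bst2 and Irf8 of dendritic cells −0.29 and 0.36, and Ms4a1 and Pax5 of B cells 0.71 and 0.49. Bst2 did pass after median-of-ratios scaling, with the replicate number as a block and without lean 3 (limma, Benjamini-Hochberg adjusted p = 0.031, 0.0457 and 0.0416), and Prss34 did without obese 3 (log2 difference −2.09; adjusted p = 0.0209 in that limma fit). Summed basophil and mast cell markers lay at 16.8 to 38.2 FPKM in obese and 37.2 to 78.7 FPKM in lean libraries, overlapping narrowly.

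The remaining lists marked cells that do not carry these granules. Of 10 neutrophil markers, 6 fell and none rose, with summed levels of 157 to 416 FPKM in obese and 547 to 787 FPKM in lean libraries. S100a8, S100a9, Lcn2 and Retnlg had log2 differences of −1.40, −1.42, −1.81 and −1.36 (limma, Benjamini-Hochberg adjusted p up to 0.0216), and only Retnlg of these 4 passed whichever library was left out or with no filter on low values. Each of the 9 erythroid markers tested rose, with summed levels of 4354 to 29020 FPKM in obese and 174 to 474 FPKM in lean libraries. Slc4a1, Hbb-bs, Hbb-bt and Hba-a2, of the red cell membrane and haemoglobin, had log2 differences of 5.26, 5.91, 6.02 and 5.91. Haemoglobin genes took 0.702% to 4.56% of the summed FPKM in obese and 0.0259% to 0.0711% in lean libraries. The log2 difference of Gzmk lay between 1.22 and 1.46 on the log2 scale over the 7 alternatives that kept all libraries.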

How the data were processed

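RNA of splenic CD4+ T cells was sequenced in 3 obese and 3 lean libraries, grouped by the labels' titles. The authors deposited FPKM values with 2 decimals for 22899 genes per library, and per the submitters' processing notes Bowtie and RSEM were used with builds GRCm38 and mm10. Tool versions, strand settings and the annotation used are not given in the sources at hand. Low values showed no clear whole-read steps, so depth is unknown and precision comes from the spread between libraries. The labels do not say whether these are separate mice, so p-values measure that spread, which may be technical.

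Genes that reached 1 FPKM in 3 or more libraries were fitted as log2(FPKM + 1) with limma 3.58.1 in R 4.3.3 (trended eBayes, group as the sole term, 2-sided, Benjamini-Hochberg over 10788 genes, threshold 0.05). The fit was tested on simulated data. Differences understate the change of low genes. The members, lists and the rule for named genes (all 10 members, up to 4 called genes per list or the 2 with the smallest p, and the 4 most like Gzmk and Ncr1) were chosen with earlier results of these data known. Motif letters were chosen after the files were read. Promoters and coordinates came from RefSeq GRCm38.p6. Alternatives were another pseudocount, 2 filters, 3 scalings, the replicate number as a block and each library left out. One gene that the rule for named genes picks is not reported here.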

Additional observations from a re-analysis of the deposited data

How the results depend on the processing

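Counts of called genes depended on filter, scaling and library. Of all genes, 678 were called (622 higher, 56 lower), and of the list genes 38 (29 higher, 9 lower). With no filter beyond a value above 0, 368 genes were called (344 higher, 24 lower) and 23 list genes (2 lower). With a filter of 5 FPKM, under which Gzmm was no longer tested, the counts were 352, 316 and 36. After median-of-ratios scaling 129 genes were lower, and after quantile normalization 434 were called (322 higher, 112 lower). Without haemoglobin genes in the scaling 951 were higher. A pseudocount of 0.1 gave 692. With the replicate number as a block 1015 were called, 149 of them lower. Same-numbered libraries had correlations of deviations of 0.032, 0.061 and 0.193, and 2 of 6 correlated best with their own number. With so few libraries per group, these values cannot settle whether same-numbered libraries share more than a number. Leaving out each library gave 318 to 698 genes, 299 to 601 higher and 19 to 97 lower, and 23 to 36 list genes, 21 to 28 higher and 2 to 12 lower. The 7 genes of the set with a negative difference stayed negative, and Gzmk and Eomes positive, in each setting that tested them. Cd8b1 (0.01) had −0.11 after median-of-ratios scaling, −0.03 after quantile normalization and −0.13 to 0.21 when libraries were left out, with −0.05 without obese 2 or lean 3 and −0.06 without lean 1. The causes of these shifts were not tested. Of 23 named list genes that passed, 12 passed in all 6 leave-one-out fits.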
